A study of Homo sapiens with 6 samples.

Results

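The 6 genes described here, NECTIN4, EPCAM, F3, MSLN, FOLR1 and CEACAM5, encode cell surface proteins against which antibody–drug conjugates (ADCs) other than RC48 have been made. The rule lists them by name and uses no measured value, although the list was drawn up with earlier results of these data known. All 6 were among the 16390 genes listed in each library. SW780 is an established human bladder cancer cell line that the study uses as a luminal type. RC48 (disitamab vedotin) is an ADC that binds ERBB2 and carries monomethyl auristatin E, an inhibitor of microtubules. Total RNA was sequenced from 3 Control libraries and 3 RC48 libraries, made from cells that had received the conjugate at 25 µg/ml, a concentration given in the study's methods. The exposure time is not given in the sources used here. All 6 libraries came from this 1 line, and nothing states that the libraries of a group came from separate cultures, so p-values measure the spread between these libraries, which may be technical. ERBB2, the antigen of RC48, served as a reference. The comparison addressed how much transcript of each alternative antigen SW780 held, and whether that amount differed after RC48.

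An ADC joins an antibody to a toxic payload through a linker. The antibody binds its antigen on the cell surface, the complex is taken into the cell, and the payload is released there, so the amount of antigen at the surface is one of the determinants of how much payload enters. NECTIN4 is an adhesion molecule of the nectin family and the target of enfortumab vedotin, which is used against urothelial cancer. EPCAM is an adhesion molecule of epithelial cells. F3, or tissue factor, is the membrane receptor that starts coagulation by binding factor VII and is the target of tisotumab vedotin. FOLR1 binds and takes up folate and is the target of mirvetuximab soravtansine. MSLN (mesothelin), FOLR1 and CEACAM5 (carcinoembryonic antigen) are held in the membrane by a glycosylphosphatidylinositol (GPI) anchor, whereas NECTIN4, EPCAM and F3 span the membrane.

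On GRCh38.p14, the RefSeq annotation places NECTIN4 on chromosome 1 from 161070998 to 161089558 and F3 on the same chromosome from 94529173 to 94541759. EPCAM lies on chromosome 2 from 47369311 to 47387020, FOLR1 on chromosome 11 from 72189709 to 72196323, MSLN on chromosome 16 from 760734 to 768865 and CEACAM5 on chromosome 19 from 41708626 to 41730519. A RefSeq promoter entry was matched for 3 of the 6 genes, and these 3 differ in base composition as well as in transcript level. The 250 bases upstream of each start are shown 5′ to 3′ along the gene's strand for NECTIN4 (chr1:161089559-161089808, minus strand), F3 (chr1:94541760-94542009, minus strand) and CEACAM5 (chr19:41708376-41708625, plus strand). Capitals mark a match to any of 6 short motifs, each searched on both strands. The letters TGANTCA stand for the site of the stress-responsive factor AP-1. An NF-κB-like motif was spelled GGNNTTTCC for the search. The GC box, which binds factors of the Sp family, was read as GGGCGG in these stretches. The box that places many start sites, TTTATA, was called TATA-like. The letters AGATAA were used for the GATA factors, which include GATA3 of the luminal urothelium. The FOXA factors, also luminal regulators, were looked for by the letters TGTTTAC.
NECTIN4: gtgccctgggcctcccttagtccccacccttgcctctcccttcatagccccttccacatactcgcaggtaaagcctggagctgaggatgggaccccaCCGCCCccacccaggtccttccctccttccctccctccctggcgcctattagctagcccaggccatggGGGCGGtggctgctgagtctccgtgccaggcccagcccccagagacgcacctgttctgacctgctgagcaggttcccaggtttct
F3: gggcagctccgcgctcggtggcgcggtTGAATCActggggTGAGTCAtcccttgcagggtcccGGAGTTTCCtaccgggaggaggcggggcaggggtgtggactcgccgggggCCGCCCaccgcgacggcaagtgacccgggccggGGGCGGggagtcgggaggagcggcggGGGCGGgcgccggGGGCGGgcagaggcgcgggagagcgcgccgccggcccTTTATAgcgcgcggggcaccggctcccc
CEACAM5: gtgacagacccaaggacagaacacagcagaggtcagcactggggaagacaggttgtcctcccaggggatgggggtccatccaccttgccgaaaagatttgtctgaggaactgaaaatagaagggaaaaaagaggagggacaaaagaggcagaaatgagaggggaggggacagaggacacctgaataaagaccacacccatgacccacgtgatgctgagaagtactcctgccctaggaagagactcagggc

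The F3 stretch had a GC content of 78.0% with 34 CpG pairs, the NECTIN4 stretch 65.2% with 6, and the CEACAM5 stretch 53.2% with 2, where the median of 35116 promoters was 58.0%. The F3 stretch held 2 AP-1 matches, at 223 to 217 and 210 to 204 bases before the start, and 1 NF-κB-like match at 187 to 179. It also held 4 GC boxes and 1 TATA-like match 28 to 23 bases before the start. The NECTIN4 stretch held 2 GC boxes, and no motif was matched in the CEACAM5 stretch. Of all promoters of this length, 6.57% held the AP-1 motif, 5.48% the NF-κB-like motif, 42.6% the GC box, 10.7% the TATA-like motif, 9.17% the GATA motif and 2.98% the FOXA motif. A match describes letters in this window and is not a measured binding site.

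Estimated counts summed to between 16453233 and 17988030 per library. In edgeR's quasi-likelihood test 288 of 13055 genes were called at a Benjamini-Hochberg adjusted p under 0.05, of which 258 rose and 30 fell. Relative to the Control mean, the log2 ratio of a gene moved with the GC content of its transcripts in RC48 replicate 1 (Spearman's rho 0.741 across 13018 genes, which are not independent) and RC48 replicate 3 (0.573), and not in RC48 replicate 2 (-0.013). The changes of the tested antigens are therefore given also after a correction that removes the trend with GC content from each library, under which 905 of 13018 genes were called. Summed luminal marker transcripts were 9860 to 10400 TPM in Control and 9720 to 10800 in RC48. Of 9 luminal markers tested 1 was called, the keratin KRT20, and 6 of the 9 were higher in RC48 (median log2 fold change 0.10). With the GC correction the median of the 9 was -0.13, so the direction of the list turned with the correction. KRT20 fell by 1.55 on the log2 scale (SE 0.31, edgeR adjusted p = 0.0489), or by 1.41 with the correction, and was called in 15 of 22 alternatives (adjusted p up to 0.232). The leukocyte marker list (6 of 8 genes listed) summed to 26.7 to 27.7 TPM in Control and 32.8 to 51.5 in RC48. Its highest gene was CORO1A (20.6 TPM in Control), and PTPRC, which defines leukocytes, was at or near 0 in every library. All 5 leukocyte markers tested were higher in RC48 (median log2 fold change 0.65), and 0 were called. Basal markers summed to 129 to 137 TPM in Control and 117 to 135 in RC48, with CD44 highest (120 TPM in Control). Fibroblast markers summed to 213 to 242 TPM in Control and 158 to 237 in RC48. Of 3 tested, 2 were higher in RC48 and 0 were called. LUM (125 TPM in Control) had a log2 fold change of -0.86, and COL3A1 (95.2 TPM) one of 0.55. With the GC correction COL3A1 was called (0.62, edgeR adjusted p = 0.00471), where 6.95% of all genes were. PDGFRB and DCN were near 0 in every library. Endothelial markers summed to 7.06 to 8.15 TPM in Control and 4.98 to 6.06 in RC48, and 0 of 3 tested were called.

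In Control cells the 6 antigens spanned a wide range of levels. EPCAM stood highest at 211 ± 2.82 TPM (a transcript level per length and sequencing depth, SD, n = 3), above 95.4% of all genes listed. F3 followed at 35.8 ± 2.13 TPM, NECTIN4 at 9.21 ± 0.275, CEACAM5 at 2.23 ± 0.506, FOLR1 at 0.220 ± 0.0872 and MSLN at 0.0867 ± 0.110. Each of the first 4 lay outside the range of the next, with Control TPM of 208 to 214, 34.0 to 38.1, 8.93 to 9.48 and 1.74 to 2.75 in that order. FOLR1 (0.16 to 0.32) and MSLN (0 to 0.21) overlapped, so the order of the last pair was not set by these libraries. The reference antigen ERBB2 (79.6 to 87.7 TPM) lay between EPCAM and F3.

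**Figure D1:**
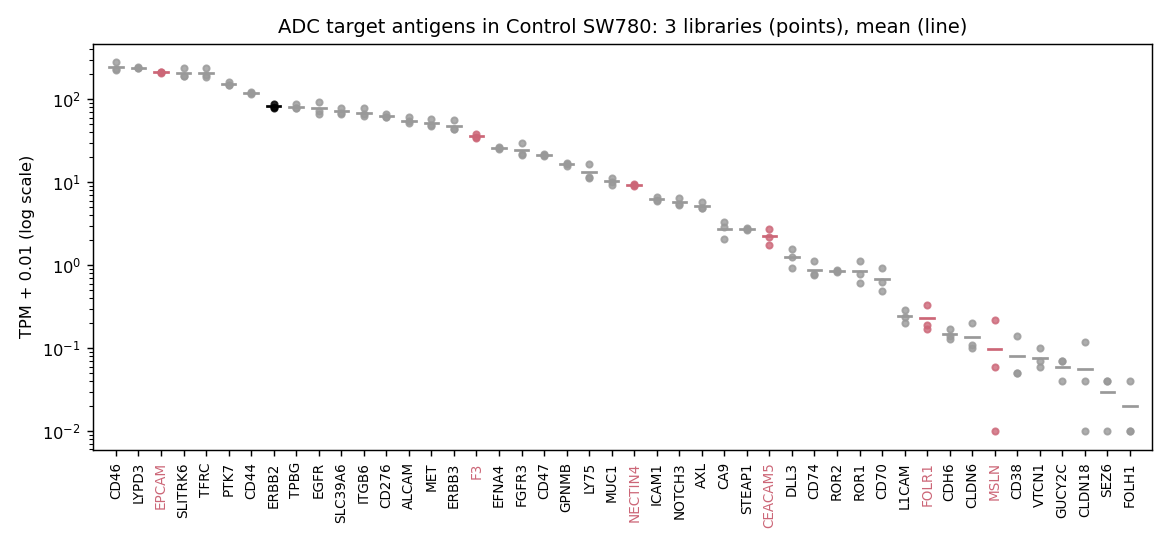
Transcript levels of ADC target antigens in Control SW780, as TPM plus 0.01 on a log axis, ordered by the Control mean. Points are the 3 Control libraries and lines their means, with the 6 antigens described here in red, ERBB2 in black and other ADC antigens in grey. EPCAM is 3rd from the left, and FOLR1 and MSLN lie at the low end.

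Of 40 other ADC antigens compared here, among them ERBB2, 2 had a higher mean Control TPM than EPCAM, 15 than F3, 21 than NECTIN4, 26 than CEACAM5, 32 than FOLR1 and 34 than MSLN. The 5 highest of these 40 were the complement regulator CD46 (245 TPM), LYPD3 (241), SLITRK6 (207), the transferrin receptor TFRC (206) and PTK7 (153). A mean under 0.1 TPM was found for 6 of the 40.

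Of the 6 antigens, the filter on low counts passed 4, NECTIN4, EPCAM, F3 and CEACAM5, and 0 of these 4 were called, where 2.21% of all genes tested were. At an unadjusted p under 0.05 there was 1 of the 4, EPCAM, where 19.1% of all genes tested were. DESeq2 also called 0 of the 4, and 5.7% of all genes. With the GC correction 1 of the 4, F3, was called, where 6.95% of all genes tested were. In bulk RNA, fewer cells with a transcript and less of it per cell cannot be told apart, and neither value measures protein at the surface.

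EPCAM was lower in every RC48 library than in any Control library. Its level in CPM (counts relative to the library total, scaled by TMM) was 151, 155 and 140 in Control replicates 1 to 3 and 81.9, 124 and 112 in RC48 replicates 1 to 3. The groups did not overlap, and RC48 replicate 1 stood lowest. Of all genes tested, 14.1% had every RC48 library below every Control library. The mean went from 149 ± 7.74 to 106 ± 21.6 CPM (SD, n = 3), a log2 fold change of -0.49 (SE 0.17, 95% interval -0.87 to -0.10), and was not called (edgeR, Benjamini-Hochberg adjusted p = 0.199). The exact two-sided permutation test gave p = 0.1, the smallest that 3 against 3 libraries allow. EPCAM transcripts have a GC content of 45.1%, on the side of lower GC content, where genes had lower values in RC48 replicates 1 and 3. After the GC correction its log2 ratios to Control were -0.53, -0.27 and -0.30 in RC48 replicates 1 to 3, and its log2 fold change was -0.36 (SE 0.10, edgeR adjusted p = 0.0662). Without RC48 replicate 2, EPCAM was called (log2 fold change -0.62, edgeR adjusted p = 0.0308), as were 28.3% of all genes. Limma on log2(TPM+1), the scale of the study's own method, also called it (-0.80, limma adjusted p = 0.0247) with 22.2% of all genes, but used the 5 libraries with deposited TPM and so left out the same RC48 replicate 2. Without RC48 replicate 1 the edgeR adjusted p was 0.0674, and without Control replicate 1, 2 or 3 or RC48 replicate 3 it was 0.417 to 0.515.

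F3 differed in the opposite direction. Its level was 40.7, 39.5 and 40.3 CPM in Control replicates 1 to 3 and 43.6, 53.8 and 50.0 in RC48 replicates 1 to 3. The groups did not overlap, with the RC48 values all higher, which was so for 17.4% of all genes tested, and RC48 replicate 1 was nearest to Control. In TPM the groups overlapped, at 35.1, 34.0 and 38.1 in Control and 33.7, 48.4 and 42.0 in RC48, with RC48 replicate 1 below every Control library. The mean went from 40.2 ± 0.603 to 49.2 ± 5.15 CPM (SD, n = 3), and the log2 fold change of 0.29 (SE 0.13, 95% interval -0.01 to 0.59) was not called (edgeR adjusted p = 0.265, exact permutation p = 0.1). F3 has the lowest GC content of the 6 transcripts, 43.5%. With the GC correction the log2 ratios were 0.59, 0.42 and 0.49 in RC48 replicates 1 to 3, and F3 rose by 0.50 on the log2 scale (SE 0.08, 95% interval 0.32 to 0.69, edgeR adjusted p = 0.0098). With a library left out beside this correction, added after seeing the data, the adjusted p lay between 0.00386 and 0.0694. The call was lost without any 1 of the Control libraries (edgeR adjusted p = 0.0669, 0.0694 and 0.0527) and without RC48 replicate 3 (0.0663).

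NECTIN4 overlapped between the groups. Its level was 17.5, 17.0 and 15.1 CPM in Control replicates 1 to 3 and 26.4, 17.1 and 17.3 in RC48 replicates 1 to 3. Only RC48 replicate 1 lay above the highest Control library. The log2 fold change was 0.29 (SE 0.20, 95% interval -0.17 to 0.75, edgeR adjusted p = 0.377, exact permutation p = 0.4), which spans folds of 0.888 to 1.68. At a GC content of 55.8% the GC correction brought the log2 ratio of RC48 replicate 1 from 0.66 to 0.21, and the log2 fold change to 0.07 (SE 0.11, edgeR adjusted p = 0.731). Without RC48 replicate 1 the log2 fold change was 0.049 (edgeR adjusted p = 0.857).

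CEACAM5 was present at a low level in both groups. Control replicates 1 to 3 held 53, 71 and 61 counts (3.06, 4.11 and 3.59 CPM) and RC48 replicates 1 to 3 held 68, 73 and 73.07 (4.13, 4.17 and 4.06 CPM). The groups overlapped, with Control replicate 2 within the range of RC48. The log2 fold change was 0.20 (SE 0.18, 95% interval -0.22 to 0.61, edgeR adjusted p = 0.483), and 0.09 with the GC correction. CEACAM genes resemble each other in sequence, and RSEM can divide reads between such genes. The CEACAM5 counts were whole numbers in every library except RC48 replicate 3.

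MSLN and FOLR1 were at the edge of detection and did not pass the filter. In edgeR without the filter neither was called (adjusted p = 0.29 for MSLN and 0.411 for FOLR1). MSLN had 4, 1 and 0 counts in Control replicates 1 to 3 and 8, 7 and 4 in RC48 replicates 1 to 3, or 5 against 19 in all. The ratio of these sums was 3.77 (exact 95% interval 1.36 to 12.9, for counting error only), and across libraries the exact permutation test gave p = 0.2. This ratio carries no GC correction, and MSLN transcripts have a GC content of 65.3%. Tested genes at a GC content of 62.1% to 74.7% had median log2 ratios to Control of 0.64, 0.01 and 0.23 in RC48 replicates 1 to 3. The log2 ratio of MSLN was 1.91, and 3.65 without Control replicate 1, which held 4 of the 5 Control counts. FOLR1 had 2, 1 and 1 counts in Control and 9, 0 and 4 in RC48, or 4 against 13, with a ratio of 3.22 (exact 95% interval 0.996 to 13.6) and an exact permutation p of 0.4. The 9 counts of RC48 replicate 1 made up most of the FOLR1 reads in that group. The log2 ratio of FOLR1 was 1.69, 0.54 without RC48 replicate 1 and 2.28 without RC48 replicate 2. A count of 0 allows up to 3 counts, which is 0.167 to 0.182 CPM in these libraries.

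**Figure D2:**
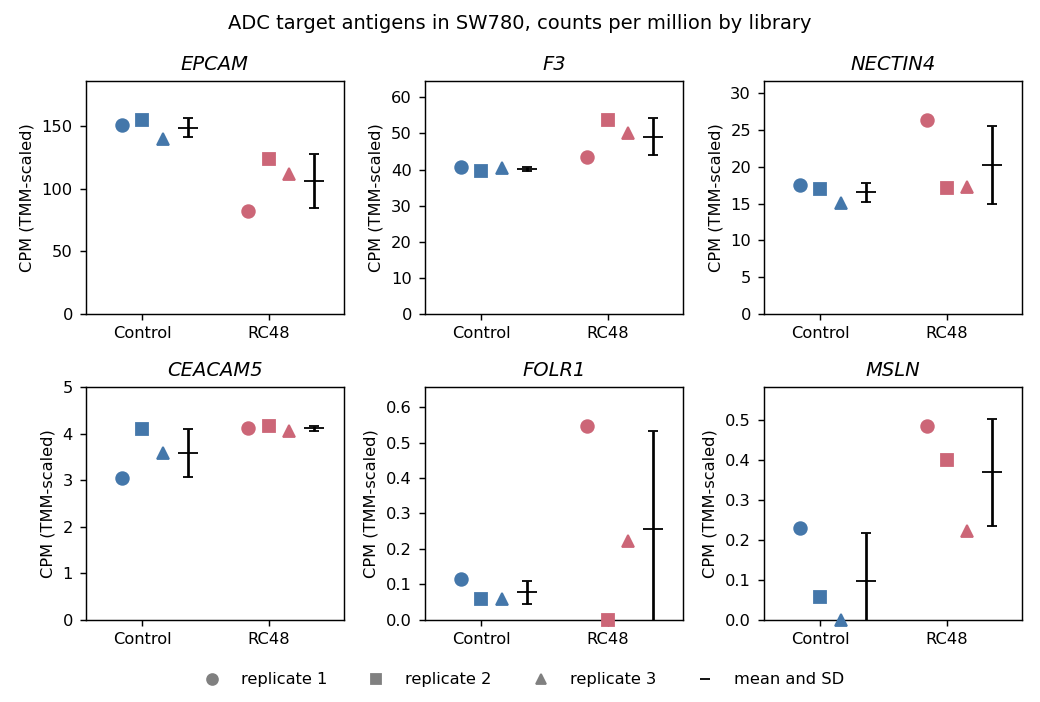
Level of each antigen by library, in CPM on a linear axis from 0, with a separate scale per gene. Points are libraries, shaped by replicate number, and black bars give the mean and SD of 3 libraries, cut at 0. EPCAM and F3 show no overlap between the groups on this scale, and NECTIN4 and CEACAM5 do.

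**Figure D3:**
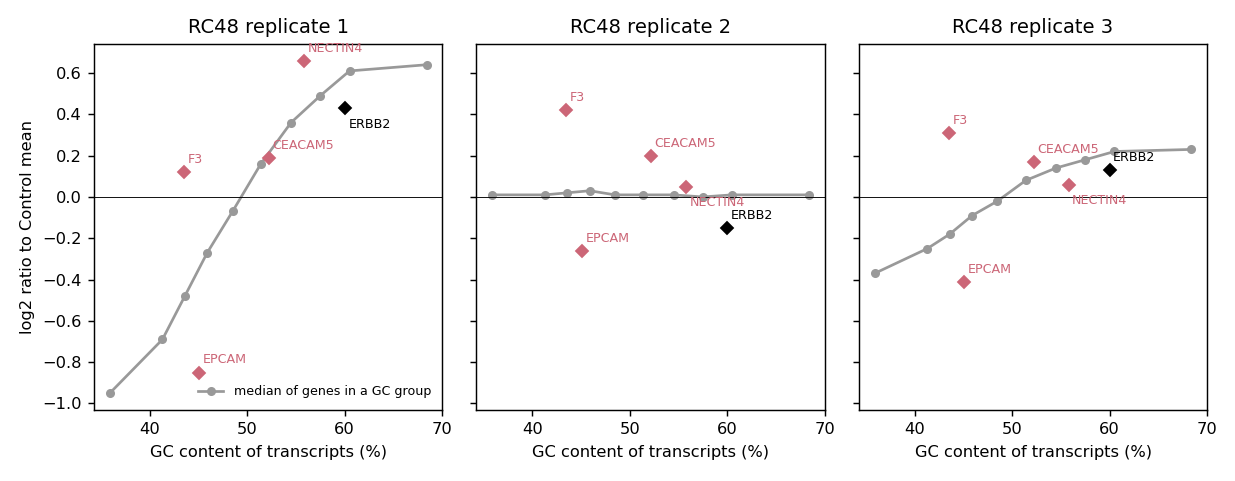
Log2 ratio to the Control mean in each RC48 library, plotted against the GC content of transcripts in percent. Grey points are medians of genes in groups of rising GC content and diamonds are single antigens, with ERBB2 in black. The grey line climbs in RC48 replicates 1 and 3 and is flat in replicate 2. F3 lies above it in all 3, and EPCAM and ERBB2 lie below it in all 3.

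The transcripts of ERBB2 have a GC content of 60.0%. ERBB2 averaged 205 ± 3.05 CPM in Control and 229 ± 46.3 in RC48 (SD, n = 3). Its log2 fold change was 0.16 (edgeR adjusted p = 0.519) and turned to -0.14 with the GC correction (edgeR adjusted p = 0.261). The TPM ratio of EPCAM to ERBB2 was 2.62, 2.61 and 2.42 in Control replicates 1 to 3 and 0.981, 2.36 and 1.73 in RC48 replicates 1 to 3, without overlap (exact permutation p = 0.1). The TPM ratio of NECTIN4 to ERBB2 was 0.119, 0.113 and 0.102 in Control and 0.130, 0.128 and 0.106 in RC48, and overlapped (exact permutation p = 0.3). The TPM ratio of F3 to ERBB2 was 0.441, 0.416 and 0.435 in Control and 0.336, 0.640 and 0.487 in RC48, with RC48 replicate 1 below Control and the others above it (exact permutation p = 0.7). These ratios carry no GC correction. GC content differs within each of these pairs, and its part in the ratios was not tested. With the GC correction the log2 ratios of ERBB2 to Control were -0.19, -0.14 and -0.10 in RC48 replicates 1 to 3. In the same libraries EPCAM was also lower (-0.53, -0.27 and -0.30), while F3 was higher in each, RC48 replicate 1 included (0.59, 0.42 and 0.49). NECTIN4 stood at 0.21, 0.06 and -0.10.

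**Figure D4:**
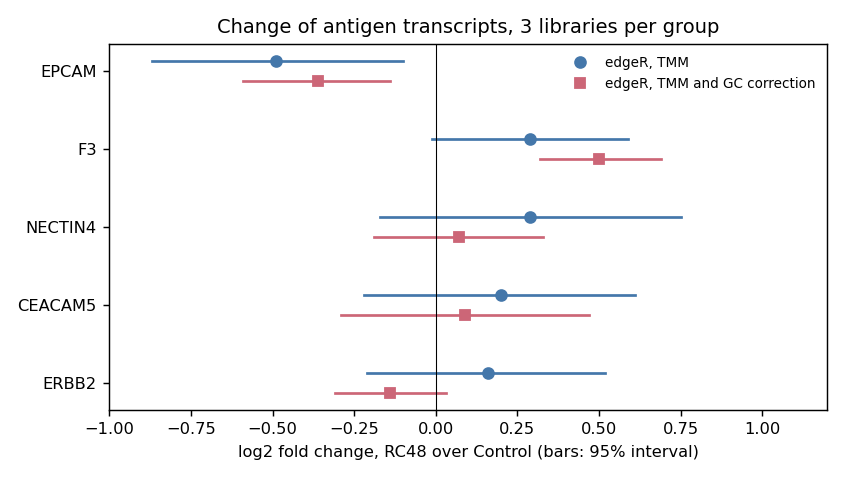
Log2 fold change of RC48 over Control for the 4 antigens that passed the filter and for ERBB2. Circles are the edgeR fit with TMM, squares the same fit with the GC correction, and bars the 95% intervals. The EPCAM interval lies below 0 in both fits, at -0.87 to -0.10 and, with the correction, -0.59 to -0.14. EPCAM was called in neither fit. The F3 interval includes 0 without the correction and lies above 0 with it, at 0.32 to 0.69. The intervals of NECTIN4, CEACAM5 and ERBB2 include 0 in both fits.

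Genes that work with these antigens were followed as lists, which leave out the antigens themselves. Of 7 nectins and nectin-like genes tested, 0 were called, with a median log2 fold change of 0.05, where the median of all genes was 0.02. NECTIN2 (187 TPM in Control) had a log2 fold change of 0.47 (edgeR adjusted p = 0.154), and NECTIN1 (143 TPM) one of 0.00 (edgeR adjusted p = 0.999). Of 18 EpCAM partners and processing proteases 0 were called, with a median of 0.27. These include the protease inhibitor SPINT2 (1580 TPM), the tetraspanin CD9 (907 TPM) and the tight junction protein CLDN4 (497 TPM), with log2 fold changes of 0.27, -0.09 and 0.60. With the GC correction the median was 0.07 and 1 of the 18 was called, SPINT1, which inhibits matriptase and rose by 0.33 (edgeR adjusted p = 0.038). In that fit 6.95% of all genes were called, which is also the share behind the single calls with the correction in the lists that follow.

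Of 10 tested genes of the tissue factor pathway 0 were called, with a median log2 fold change of -0.06. TFPI, which inhibits the complex of tissue factor and factor VII, stood at 56.0, 57.3 and 54.3 CPM in Control replicates 1 to 3 and at 40.2, 71.8 and 58.3 in RC48 replicates 1 to 3. Its RC48 libraries lay on both sides of Control, and its log2 fold change was 0.02. With the GC correction 1 of the 10 was called, TFPI, which rose by 0.33 on the log2 scale (edgeR adjusted p = 0.0392), and the list's median was -0.15. Of 11 tested genes for folate receptors, transport and use 0 were called, with a median of -0.07. With the correction 1 of the 11 was called, the folate carrier SLC19A1, which fell by 0.43 on the log2 scale (edgeR adjusted p = 0.0344). Of 26 genes that assemble the GPI anchor 0 were called, and with the correction 1 of the 26, PIGW, which fell by 0.52 on the log2 scale (edgeR adjusted p = 0.0117).

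In the CEACAM family, leaving out CEACAM5, which was not called in either fit, 1 of 3 tested genes was called, CEACAM19, where 2.21% of all genes were. With the GC correction 2 of these 3 were called, where 6.95% of all genes were. CEACAM19 rose by 1.26 on the log2 scale (SE 0.19, edgeR adjusted p = 0.015), from 2.12 ± 0.0891 to 5.08 ± 0.678 CPM (SD, n = 3), or by 1.01 with the correction. In the uncorrected fit the call was lost without Control replicate 1, 2 or 3 (edgeR adjusted p = 0.133, 0.112 and 0.11) and without RC48 replicate 3 (0.0872). CEACAM6, an adhesion molecule close to CEACAM5, was far more abundant than CEACAM5, at 115, 118 and 127 TPM in Control replicates 1 to 3 and 71.9, 89.5 and 81.9 in RC48 replicates 1 to 3. The groups did not overlap in TPM or in CPM. In CPM, 14.1% of all genes tested had every RC48 library below every Control library. The log2 fold change of CEACAM6 was -0.48 (SE 0.10, edgeR adjusted p = 0.0706). With the GC correction CEACAM6 fell by 0.51 on the log2 scale (SE 0.08, edgeR adjusted p = 0.00745).

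Among the other ADC antigens, 5 of the 32 tested were called (15.6%, against 2.21% of all genes tested), and all 5 rose. The list's median log2 fold change was 0.20, and 0.12 with the GC correction. The list was chosen with earlier results of these data known, so its share is a description. ICAM1, an adhesion molecule for leukocytes and a textbook NF-κB target, rose the most of the 5, from 10.4, 9.62 and 8.48 CPM in Control replicates 1 to 3 to 70.5, 46.6 and 53.7 in RC48 replicates 1 to 3. Its log2 fold change was 2.58 (SE 0.19, edgeR adjusted p = 0.000637), or 2.30 with the GC correction, and it was called under all 23 alternatives. The adhesion molecule L1CAM rose by 1.99 (SE 0.35, edgeR adjusted p = 0.0339), from 32 counts over the Control libraries to 128 over the RC48 libraries, or by 1.66 with the correction.

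The mucin MUC1 rose by 1.62 on the log2 scale (SE 0.25, edgeR adjusted p = 0.0191), from 7.45 ± 0.948 to 22.9 ± 7.67 CPM (SD, n = 3), or by 1.38 with the GC correction. CD74, the invariant chain of class II antigen presentation, rose by 1.42 (SE 0.28, edgeR adjusted p = 0.0475) at under 3 CPM in every library, or by 1.12 with the correction. The receptor tyrosine kinase AXL rose by 0.91 (SE 0.15, edgeR adjusted p = 0.0243), and was not called with the GC correction (0.67, edgeR adjusted p = 0.0799). That correction called 7 of the 32, where 6.95% of all genes were called, adding the integrin ITGB6 (0.92) and CD47 (0.81), which rose, and the carbonic anhydrase CA9, which fell by 1.16 on the log2 scale. In the uncorrected fit ICAM1 was the only one of the 5 called without any 1 Control library or without RC48 replicate 3, and with the correction ICAM1 and MUC1 were called in each of these cases. ICAM1, at 35.3 ± 5.16 TPM in RC48 against 6.25 ± 0.349 in Control, thereby stood above NECTIN4 (10.6 ± 2.12 TPM) in RC48 and below it (9.21 ± 0.275) in Control, in every library.

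The pattern of each tested antigen over the 6 libraries was compared with 9996 genes at a mean of at least 10 CPM, by Pearson's r of log2 CPM, as a description. Closest to EPCAM were GINS1 (r = 0.9990), RBM17 (0.9988) and RPL4 (0.9982), closest to NECTIN4 were THAP11 (0.9967), NFYC (0.9961) and SLC2A1 (0.9948), and closest to F3 were IVNS1ABP (0.9974), ATP1B1 (0.9963) and OLR1 (0.9924). For CEACAM5 they were APOL4 (0.9647), TRAF6 (0.9222) and GPNMB (0.8789). Above an r of 0.95 there were 847 genes for EPCAM, 491 for NECTIN4, 66 for F3 and 1 for CEACAM5. The points share libraries and the trend with GC content, and the 3 genes closest to EPCAM had GC contents of 43.5% to 47.6%, beside the 45.1% of EPCAM.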

How the data were processed

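Total RNA of 6 libraries of the SW780 line was sequenced by BGI. The authors used SOAPnuke to filter reads, Bowtie2 for mapping and RSEM for counting, and deposited expected counts per gene, not normalized, and TPM values. The submitters' processing notes name hg38 and limma, and versions and annotation are not given in the sources used here. No TPM of RC48 replicate 2 was used here as deposited. Effective gene lengths were derived from the other libraries, wherever a gene had nonzero counts and TPM. The counts of RC48 replicate 2 were divided by these lengths. For RC48 replicate 3 this computation differed from the deposited TPM by a median absolute log2 of 0.0383. That check covered 11982 genes with 20 or more counts and 1 or more TPM.

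Expected counts were rounded, filtered with filterByExpr, scaled by TMM and tested across all genes with edgeR 4.0.16 (quasi-likelihood, R 4.3.3) for RC48 against Control without covariates, with Benjamini-Hochberg adjustment at 0.05. GC content came from GENCODE transcripts for 16321 of 16390 genes (99.6%), and the correction subtracted a loess trend (span 0.3) per library. Alternatives used DESeq2 1.42.0, limma 3.58.1 and other scalings, filters and left-out libraries. Exact permutation tests were two-sided on log2 CPM, and for the ratios to ERBB2 on the log2 TPM ratio, with computed TPM for RC48 replicate 2. Intervals (95%) and limits for low counts reflect counting error alone. The edgeR test, with and without the GC correction, was tried on simulated counts with 200 changed genes. The simulation gave all genes and libraries the same spread beyond counting error, unlike these libraries, so it does not measure error rates for these data.

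The members and gene lists were chosen with earlier results of these data known. Some genes are not reported here and were left out of the lists. Named are the 6 members, ERBB2, called genes and up to 3 (other antigens, 5) of the most abundant genes of each list, and the 3 genes most like each tested member. Genes called with the GC correction alone, CEACAM6, and the ICAM1 level set against NECTIN4 were chosen after their values were seen.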

Additional observations from a re-analysis of the deposited data

How the results depend on the processing

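Over 23 alternatives, EPCAM kept a negative and F3 a positive log2 fold change (-0.80 to -0.29 and 0.074 to 0.55). The number of the 6 antigens called, 0 in the edgeR fit reported, was 1 with the GC correction, 1 with the GC correction and the replicate block, 1 with limma on log2(TPM+1) and on log2(TPM+0.1), both without RC48 replicate 2, and 2 with voom and sample weights. All genes called, 288 in the reported fit, were then 905, 588, 2894, 2829 and 8018, and 744 with DESeq2. Of the other ADC antigens, 5 were called in the reported fit, 7 with DESeq2, 11 and 10 with limma on log2(TPM+1) and log2(TPM+0.1), and 23 with voom. EPCAM was called with limma on log2(TPM+1) (-0.80, adjusted p = 0.0247) and log2(TPM+0.1) (-0.80, adjusted p = 0.0262), where scale and library changed together, in edgeR without RC48 replicate 2 (-0.62, adjusted p = 0.0308) and with voom (-0.44, adjusted p = 8.56e-06). F3 was called with the GC correction (0.50, edgeR adjusted p = 0.0098), with that correction and the replicate block (0.50, edgeR adjusted p = 0.0348) and with voom (0.32, adjusted p = 0.00021). The cause of these differences was not tested.

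With each library left out in turn, alone and with the GC correction (the latter added after seeing the data), 0 to 2 of the 6 antigens, 1 to 13 of the other ADC antigens and 68 to 3726 of all genes were called. The log2 fold change of EPCAM then lay between -0.62 and -0.29, of F3 between 0.22 and 0.55, of NECTIN4 between -0.029 and 0.40 and of CEACAM5 between -0.011 and 0.31. In the fits that had no GC correction, all genes called were 3726 without RC48 replicate 2, 897 without RC48 replicate 1 and 93 without RC48 replicate 3. They were 71, 78 and 68 without Control replicates 1, 2 and 3. NECTIN4 reversed to -0.029 with the GC correction without RC48 replicate 1, and CEACAM5 to -0.011 with it without Control replicate 1. EPCAM was called with the correction without RC48 replicate 1 (-0.29, edgeR adjusted p = 0.036), where 11.6% of all genes were called. It was also called with the correction without RC48 replicate 2 (-0.41, edgeR adjusted p = 0.0382), where 16.4% of all genes were called.

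For libraries with the same replicate number, deviations from the group means correlated at 0.00204, -0.132 and 0.00478. For unlike numbers the correlations were -0.112 to 0.131. The labels state no pairing. These values cannot exclude one, because the RC48 libraries also differed in their trend with GC content. The replicate block called 331 genes and 0 of the 6 antigens, with a log2 fold change of -0.51 for EPCAM. By CPM in place of TPM, MSLN took place 5 and FOLR1 place 6 among the antigens in Control. Depth limits MSLN and FOLR1, with 0 to 9 counts per library.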
